A study of Mus musculus with 4 samples.

Results

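Thalamus spots were those Visium spots in which 5 genes used as markers of the thalamus were high together. Tcf7l2, Gbx2 and Lhx9 encode transcription factors of thalamic neurons, Ntng1 encodes netrin-G1, an adhesion molecule of thalamocortical axons, and Slitrk6 encodes a neuronal membrane protein. Each gene's level per spot, the natural log of 1 plus its count per 10000 counts, was turned into a z value over all spots. A spot was a member where the mean z of the 5 genes reached 1.5. This gave 526 member spots of 12601 spots with at least 500 counts. A Visium spot is a small circle of tissue that can hold several cells, so the members are pieces of tissue and not neurons.

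The tissue came from 4 mice, 2 wild type and 2 heterozygous for Celsr3, with no treatment. Brains were fixed in formalin, embedded in paraffin and cut in the coronal plane, and the block had been trimmed until striatum showed. The labels give no age or sex, and do not say how the Celsr3 allele was made. Spots fell into 4 barcode sets by the ending of their names, called sets 1 to 4 here. No ending matched a mouse or a genotype, so 0 of the 4 sets could be placed in a group, and wild-type and heterozygous thalamus were not compared.

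The thalamus relays sensory, motor and associative signals to the cortex and the striatum. Its relay neurons are glutamatergic and fire either single spikes or bursts carried by low-threshold calcium channels, while the inhibitory cells of the thalamic reticular nucleus surround them and send GABA back. Intralaminar and midline nuclei also send a dense glutamatergic input to the striatum. Celsr3, an atypical cadherin of the planar polarity family, is known for its part in steering axons between thalamus and cortex during development.

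Nearly all members lay in barcode sets 1 and 4. Set 1 had 165 members of 3055 spots, a share of 5.40% (exact Clopper-Pearson interval 4.63 to 6.26%, at 95% confidence). In set 4, 340 of 3294 spots were members, or 10.3% (9.30 to 11.4%). Set 3 had 20 of 3444 spots, or 0.581% (0.355 to 0.895%), and set 2 had 1 of 2808. These intervals, and those that follow, cover counting error only. Sets 1 and 4 held a broad high group, with a median member score of 4.14 and 3.70 and a highest score of 5.85 and 6.22. The members nearest the threshold had a score of 1.62 in set 1 and 1.51 in set 4, and the highest scores that missed it were 1.47 in both. From 1 to 1.5 there were 16 spots of set 1 and 25 of set 4, and from 1.5 to 2 there were 9 and 44 members. The high group thus ran on from the other spots without a gap.

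**Figure D1:**
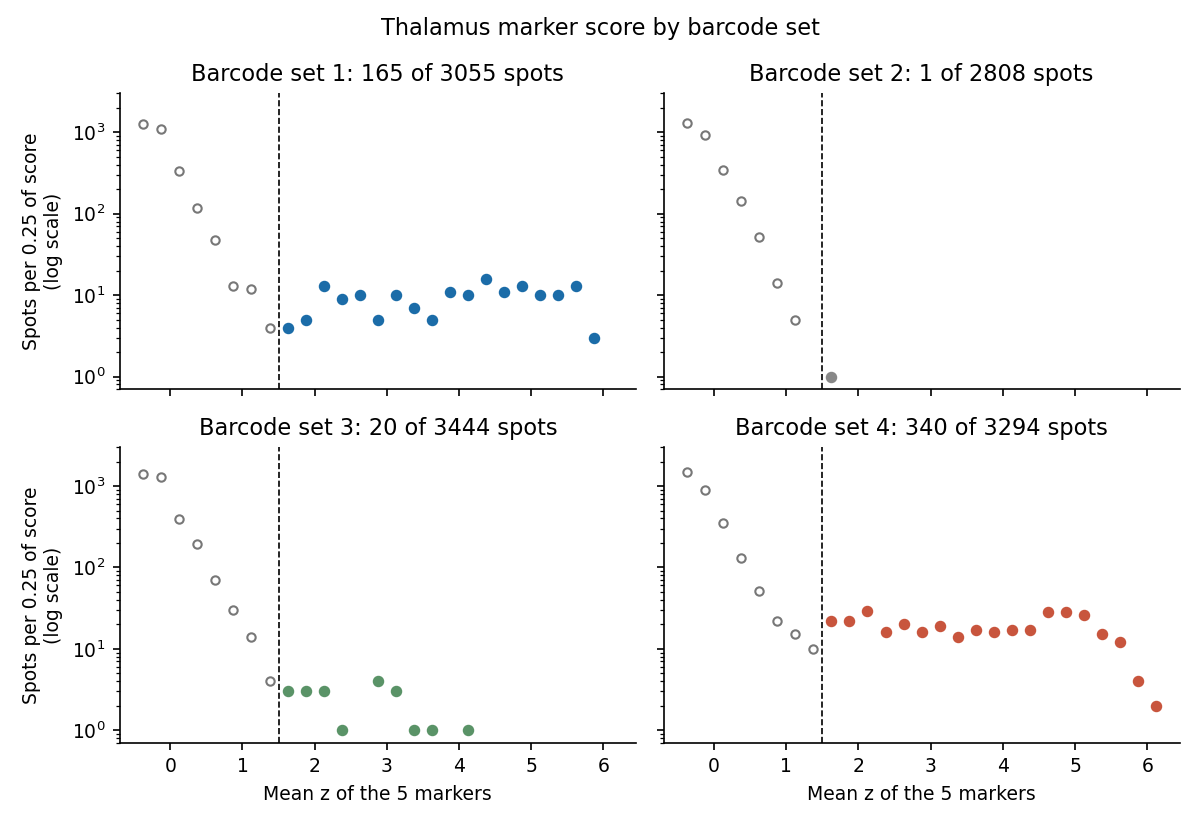
Each panel is 1 barcode set, the x axis is the mean z of the 5 thalamus markers in steps of 0.25, and the y axis is the number of spots on a log scale. Filled points are members, open points are other spots, and the dashed line is the threshold of 1.5. Sets 1 and 4 hold a long plateau of 165 and 340 members, and set 2 ends just past the line with 1 spot.

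Members were deeper than their surroundings in sets 1 and 4. The median total was 81274 counts in members and 51027 in other spots of set 1, and 33358.5 against 25655 in set 4. Set 3 went the other way, with 14590.5 in its 20 members and 45082 elsewhere. Sets 1 and 4 thus differ in depth, and all levels below are CPM, a gene's count over all counts of the spots summed, scaled to a total of 1e+06. One barcode was a member in 2 sets, 1 and 3. Probe counts of different genes are not on 1 scale, so each gene is compared only with itself.

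The 20 spots of set 3 shared some leading genes with sets 1 and 4, though not all were particular to these spots. Of the 15 genes that led in sets 1 and 4, 10 were at least 2-fold higher in these spots than in other spots of set 3 with an interval above 1, among them Slc17a6 at 5.63-fold (4.43 to 7.07), Zic1 at 4.73-fold (4.09 to 5.45) and Rgs16 at 4.49-fold (2.87 to 6.69). The other 5 were not. Grid2ip, which encodes a scaffold protein that binds the delta-2 glutamate receptor, stood at 94.2 and 138.5 CPM in members of sets 1 and 4 and had 1 count in all 20 spots of set 3. Prkcd, the gene of protein kinase C delta, was at 119.5 and 113.4 CPM in sets 1 and 4 and at 8.55 CPM, 3 counts, in set 3. Ptpn3, a protein tyrosine phosphatase gene, was lower in the set 3 members than in that set's other spots, at 0.468-fold (0.233 to 0.837). Calb2 was 5.88-fold higher, but 195 of its 395 counts lay in the deepest spot, with 50855 counts, and without that spot it was 3.48-fold higher. Without that spot 10 of the 15 genes were again at least 2-fold higher. The share of all genes that were 2-fold higher in these spots is not given here, so both counts are descriptions only. The genes that led in these 20 spots included genes of motile cilia, such as Ccdc153 at 290.7 against 11.96 CPM in other spots, Tmem212 at 242.2 against 10.2 and Dnah12, an axonemal dynein, at 114.0 against 4.00.

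The signal of the genes that led in set 3 was spread unevenly. The 15 genes were taken after the values were seen, as those with at least 15 counts and the highest ratio of CPM plus 1. They summed to 1849 CPM in the 20 spots and 78.3 CPM in other spots of set 3. The same sum was 172.5 CPM in members of set 1 and 113.2 in set 4. Over the 20 spots these genes gave from 0 to 139 counts with a median of 9, and 9 spots had 10 or more. Foxj1, the regulator of motile ciliogenesis, was at 68.4 CPM against 6.08. Set 3 had fewer than 50 members and is left out of what follows, and the part of low depth or of ependyma in its members was not tested. The single spot of set 2 had 21110 counts and no count of Slitrk6 or Grid2ip.

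Against all other spots of their own set, members of sets 1 and 4 differed in both directions. Of 10197 genes compared, with at least 10 CPM over members and other spots, 281 (2.76%) were at least 2-fold higher in both sets and 419 (4.11%) were at least 2-fold lower, on the scale of CPM plus 1. The median log2 ratio of all genes was 0.01 in both sets. The members were chosen by expression, so genes that go with the 5 markers had to differ, and these counts are a description with no test. With z taken within each set, set 3 passed 50 members and the counts became 74 higher and 262 lower. The 5 markers themselves stood at 517.8 and 407.2 CPM for Tcf7l2, 134.3 and 173.9 for Gbx2, 179.6 and 164.2 for Lhx9, 335.0 and 352.6 for Ntng1 and 145.8 and 89.1 for Slitrk6.

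Among genes with at least 50 CPM in members of both sets, Grid2ip had the highest ratio. It was at 94.2 CPM (89.2 to 99.4) in members and 2.30 in other spots of set 1, a ratio of 40.9 (36.4 to 46.0). In set 4 it was at 138.5 (131.9 to 145.3) against 4.73, a ratio of 29.3 (26.1 to 32.8). In the border spots, those with a score from 0.5 to 1.5, it was at 9.99 and 17.3 CPM, between members and the rest in both sets. Synpo2, which encodes the actin-binding protein synaptopodin-2, came next at 104.1 and 109.9 CPM against 6.74 and 6.38, a ratio of 15.5 (14.3 to 16.7) in set 1 and 17.2 (15.5 to 19.1) in set 4.

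Several leading genes act in transmitter use or signalling. Slc17a6, the vesicular glutamate transporter VGLUT2, was at 607.5 CPM (594.8 to 620.5) against 43.5 in set 1 and 456.9 (444.8 to 469.2) against 35.6 in set 4. Cbln1, a secreted organiser of glutamatergic synapses, was at 489.8 and 309.8 CPM in members and 43.4 and 43.6 in other spots. Rgs16, a brake on G-protein signalling, was 17.3-fold and 11.0-fold higher. Prkcd was 9.42-fold (8.83 to 10.1) and 12.1-fold (11.1 to 13.3) higher, and Rasd1, a small GTPase gene induced by dexamethasone, 13.2-fold and 8.21-fold.

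Zic1 and Zic2 encode zinc-finger transcription factors, both among the leading genes. Zic1 was at 760.9 CPM in set 1 and 1157 in set 4, against 39.0 and 84.9, and Zic2 at 124.7 and 301.6, against 11.0 and 33.4. Rreb1, a zinc-finger factor gene, was 6.61-fold and 8.37-fold higher. Plekhg1 was 8.12-fold and 10.4-fold higher, Amotl1, which encodes an angiomotin family protein, 7.41-fold and 7.46-fold, and Ptpn3 7.16-fold and 6.30-fold. Cpne7, a copine gene, was 10.1-fold and 7.86-fold higher.

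To let a reader see the start regions of the genes that led, the 250 bases before the RefSeq start of 3 of them are printed, with build GRCm38.p6. They are Grid2ip at chr5:143363663-143363912 on the plus strand, Slc17a6 at chr7:51621580-51621829 on the plus strand and Prkcd at chr14:30626209-30626458 on the minus strand, each written 5′ to 3′ on the gene's strand. Tcf7l2, the first of the 5 rule markers, encodes a factor that binds the core letters CTTTGA, or TCAAAG on the other strand, and capitals mark that match.
Grid2ip: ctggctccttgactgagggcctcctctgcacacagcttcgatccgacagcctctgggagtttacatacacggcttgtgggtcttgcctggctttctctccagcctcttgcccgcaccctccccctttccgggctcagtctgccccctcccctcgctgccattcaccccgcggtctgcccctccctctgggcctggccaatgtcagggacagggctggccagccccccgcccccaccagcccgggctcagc
Slc17a6: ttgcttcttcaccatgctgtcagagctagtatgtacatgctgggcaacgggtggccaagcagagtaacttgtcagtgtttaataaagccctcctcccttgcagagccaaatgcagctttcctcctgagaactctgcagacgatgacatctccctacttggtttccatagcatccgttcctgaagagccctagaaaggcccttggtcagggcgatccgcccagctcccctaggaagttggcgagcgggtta
Prkcd: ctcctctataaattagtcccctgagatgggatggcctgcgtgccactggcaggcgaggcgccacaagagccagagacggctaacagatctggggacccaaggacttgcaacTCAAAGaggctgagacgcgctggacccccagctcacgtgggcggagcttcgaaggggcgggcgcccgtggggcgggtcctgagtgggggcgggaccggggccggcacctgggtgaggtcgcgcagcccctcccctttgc
The match was found in Prkcd alone, 1 of the 10 leading higher genes with a sequence (10.0%). It was found in 0 of 9 leading lower genes with a sequence, and in 3797 of 27025 genes (14.05%) in the whole table. With 10 and 9 sequences, these shares cannot show whether the motif was more or less frequent near the leading genes. A match is a description, not a binding site. It was 1 motif tried, chosen after the values were seen.

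Several of the leading lower genes are known from striatum or cortex. Ppp1r1b, which encodes DARPP-32, was at 19.97 and 48.2 CPM in members against 1307 and 1153 in other spots, Penk, the proenkephalin gene, at 13.7 and 29.1 against 703.9 and 593.5, and Adora2a, an adenosine receptor gene, at 1.34 and 3.53 against 98.9 and 67.5. Neurod2, a factor of cortical excitatory neurons, was at 1.55 and 2.27 against 57.0 and 86.6. The border spots were intermediate for each of these, for example 149.2 and 272.8 CPM of Penk.

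**Figure D2:**
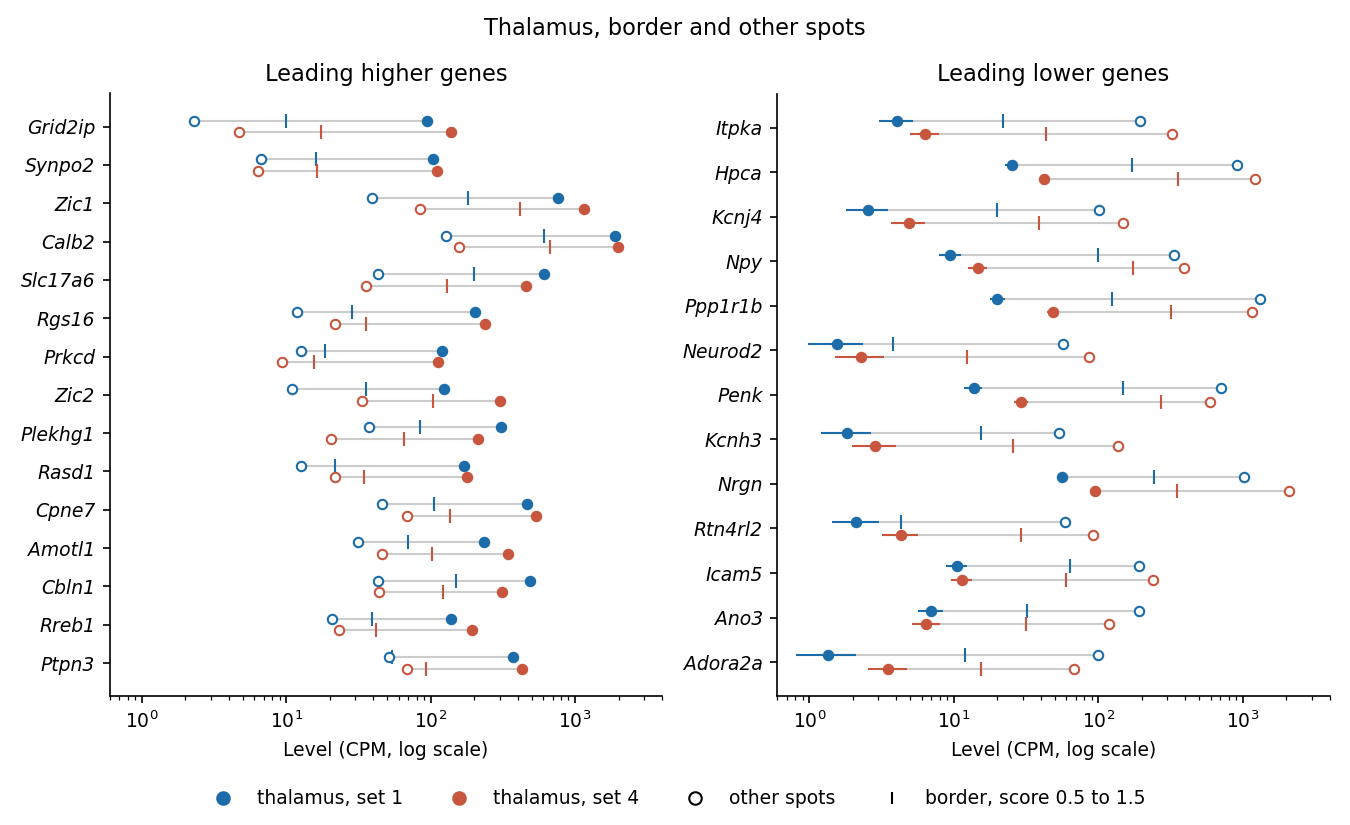
The x axis is the level in CPM on a log scale and each line is a gene, the leading higher genes at left and leading lower genes at right. Filled points are thalamus members with the exact 95% Poisson interval, open points all other spots, and ticks the border spots, in blue for set 1 and red for set 4. Grid2ip runs from 2.30 to 94.2 CPM in set 1, and Penk from 703.9 down to 13.7.

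Relay neuron genes were higher almost without exception. Of 20 compared, 19 were at least 2-fold higher and 1 was lower, beside 2.76% and 4.11% of all genes. The median log2 ratio was 3.06 in set 1 and 3.28 in set 4, beside 0.01 over all genes. This list was chosen with such results in view and is not independent evidence. Shox2, a homeobox gene of thalamic neurons, was at 44.7 and 94.9 CPM against 0.349 and 1.43 in other spots. Tnnt1, a troponin T gene, was at 128.9 and 41.0 against 5.10 and 2.17, and Lef1, a partner of beta-catenin, at 70.7 and 53.8 against 11.7 and 7.75. Rora, an orphan nuclear receptor gene, was at 428.1 and 305.6 against 96.7 and 69.7.

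The exception was Slc17a7, which encodes VGLUT1. It was at 97.9 CPM against 1250 in set 1 and 330.7 against 1277 in set 4, a log2 ratio of -3.66 and -1.95. With Slc17a6 at 3.77 and 3.65, the glutamate transporter genes were on opposite sides. Of 9 transmitter genes compared, 1 was higher and 4 were lower, beside 2.76% and 4.11% of all genes. The lower genes besides Slc17a7 were Gad1, Gad2 and Slc32a1.

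Genes of the reticular nucleus were low in members. Of 9 compared, 0 were higher and 8 were lower, beside 2.76% and 4.11% of all genes. The median log2 ratio was -2.55 in set 1 and -2.25 in set 4. Gad1, which encodes the GABA-making enzyme GAD67, was at 7.97 and 16.7 CPM against 117.2 and 112.6. Pvalb, the parvalbumin gene, was at 50.8 and 130.4 against 277.6 and 428.0, and Sst, the somatostatin gene, at 90.04 and 158.3 against 533.4 and 1051. The other spots include striatum and cortex, which have inhibitory neurons of their own, so a low ratio does not say that reticular cells are missing from the members.

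Of the habenula list, 5 genes could be compared, 1 was higher and 3 were lower, beside 2.76% and 4.11% of all genes. Gpr151, an orphan receptor gene known from the habenula, was at 23.3 and 16.2 CPM against 1.03 and 2.17. Pou4f1, the defining factor of habenular neurons, had 0.141 CPM in members of set 1 and 8.48 in set 4, and was not among the genes compared. Tac2, the neurokinin B gene, was at 2.89 and 31.4 CPM. The higher levels in set 4 lay in few spots, as 10 of its 340 members held 89.1% of the Pou4f1 counts and 88.0% of those of Tac2. The summed list had a median of 0.713 per 10000 in members of set 1 and 0.800 in set 4, with a highest spot of 13.0 and 85.8.

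The midline and intralaminar list was split. Of 10 genes compared, 4 were higher and 3 were lower, beside 2.76% and 4.11% of all genes. Calb2, the calretinin gene, was at 1892 and 1988 CPM in members and 128.7 and 156.0 in other spots. Htr7, a serotonin receptor gene, was at 84.7 and 63.3 against 14.4 and 14.8, and Galr1, a galanin receptor gene, at 35.0 and 44.4 against 6.77 and 7.33. Grm2, a presynaptic metabotropic glutamate receptor gene, was at 138.2 and 138.5 against 32.6 and 34.5. Penk, Drd2 and Cartpt were the lower genes.

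Channels of thalamic burst firing differed by member. Of 11 T-type calcium and HCN or leak channel genes compared, 1 was higher and 4 were lower, beside 2.76% and 4.11% of all genes. Cacna1g alone was higher, at 170.5 and 100.9 CPM against 39.8 and 31.0. It encodes Cav3.1, the T-type channel of relay neurons. Its relatives Cacna1h and Cacna1i, the latter the reticular form, were lower, at log2 -1.67 and -1.71 for Cacna1h and -1.55 and -1.26 for Cacna1i. Kcnk2, a leak channel gene, was lower too, at log2 -1.44 and -1.64. Hcn2, the main pacemaker channel gene of relay neurons, was at 270.4 and 247.1 CPM against 266.1 and 205.6. Hcn4 was at 11.4 and 20.7 against 1.97 and 4.60 and fell below the level needed to be compared.

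Other potassium and sodium channel genes mostly stayed within 2-fold. Of 27 compared, 3 were higher and 5 were lower, beside 2.76% and 4.11% of all genes. Kcnc2, the fast-spiking channel Kv3.2, was at 575.6 and 419.8 CPM against 138.1 and 112.1. Kcnip1 and Kcnip4, subunits of A-type channels, were higher at log2 1.32 and 1.02 and at 1.39 and 1.20, while their relative Kcnip2 was lower at -2.46 and -2.35. Scn4b, a sodium channel beta subunit, was at 18.6 and 27.1 CPM against 402.8 and 242.5.

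Of 12 GABA-A subunit genes, Gabra4 alone was higher and 0 were lower, beside 2.76% and 4.11% of all genes. Gabra4 was at 362.3 and 475.1 CPM against 146.5 and 179.4. Its alpha-4 protein is known for tonic, extrasynaptic inhibition, and Gabrd, its usual partner, was at 134.3 and 113.7 against 113.8 and 70.5. Of 24 glutamate receptor genes, 5 were higher and 3 were lower. The higher ones included Grin2d, Grin3a, Grm2 and Grm4, with Grm4 at 118.0 and 173.1 CPM against 43.1 and 48.1. The AMPA receptor gene Gria3 was lower, at 59.0 and 52.3 against 218.7 and 170.1, as were Grin2a and Grm3.

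Of 18 monoamine and acetylcholine receptor genes compared, 4 were higher and 7 were lower, beside 2.76% and 4.11% of all genes. Chrna4 and Chrnb2 encode the common nicotinic receptor pair of the brain, and both were higher. Chrna4 was at 139.4 and 171.1 CPM against 35.8 and 39.6, and Chrnb2 at 128.4 and 140.9 against 56.4 and 64.5. Adra1b, an adrenergic receptor gene, was at 109.4 and 102.9 against 36.4 and 38.0. The muscarinic genes Chrm1 and Chrm4 were lower, Chrm1 at 2.12 and 10.7 CPM against 48.7 and 92.4. Drd2 was at 11.8 and 12.6 against 92.4 and 53.0, and Drd1 was below the level compared.

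Celsr3, the gene carried in 1 altered copy by the heterozygous mice, was at 35.0 CPM in members of set 1 and 46.4 in set 4. Other spots had 31.4 and 47.3, a log2 ratio of 0.15 and -0.02, so thalamus and the rest of a section were close in both sets. Of 12 genes of planar polarity compared, 2 were higher and 0 were lower, beside 2.76% and 4.11% of all genes. Vangl1, a core membrane protein of the pathway, was at 44.9 and 21.6 CPM against 6.15 and 3.17, and Ankrd6, the diversin gene, at 94.4 and 110.1 against 39.9 and 46.4. Fzd3, the Frizzled receptor that acts with Celsr3 in axon tracts, was at 84.5 and 46.7 against 117.5 and 65.8.

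Of 43 axon guidance genes compared, 3 were higher and 14 were lower, beside 2.76% and 4.11% of all genes. L1cam, an adhesion molecule of growing axons, was at 392.1 and 229.6 CPM against 134.3 and 84.5, and Epha8, an ephrin receptor gene, at 29.6 and 64.1 against 9.18 and 14.9. The lower genes included Robo2 and Slit2, a receptor and a ligand of axon repulsion, at log2 -1.71 and -1.80 and at -1.95 and -1.23. Dcc, the netrin receptor gene, was at 28.1 and 19.98 against 36.6 and 22.6. Of 14 Wnt genes, 5 were higher and 1 was lower. Wnt3, a ligand, was at 51.7 and 73.6 CPM against 8.10 and 8.98, Fzd10, a receptor, at 22.7 and 25.8 against 3.49 and 3.86, and Nkd1, an inhibitor and target, at 59.8 and 123.3 against 19.1 and 27.9. Axin2, a general target, was at 52.4 and 48.0 against 30.1 and 30.4 and did not reach 2-fold.

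Homeobox, Fox and Zic factors divided evenly, with 9 higher and 9 lower of 20 compared. The shares over all genes, for this and the next lists, were 2.76% higher and 4.11% lower. Zic1 was higher at log2 4.25 and 3.75, Zic4 at 3.33 and 3.23 and Zic5 at 3.19 and 2.94, and Irx1, Foxp2, Shox2 and Rorb were also higher. The lower ones included Dlx1, Dlx5, Dlx6, Lhx6, Meis1, Meis2, Six3 and Nr4a2, several of them known from inhibitory neurons. Calcium-binding proteins had 1 higher and 5 lower of 14, with Hpca, the hippocalcin gene, at 25.1 and 42.4 CPM against 918.5 and 1220. Of 14 immediate-early genes, 0 were higher and 6 were lower, Arc at 21.4 and 35.9 against 131.0 and 550.6, while Fos itself was at 39.4 and 155.8 CPM against 13.9 and 78.0, a log2 ratio of 1.44 and 0.99.

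**Figure D3:**
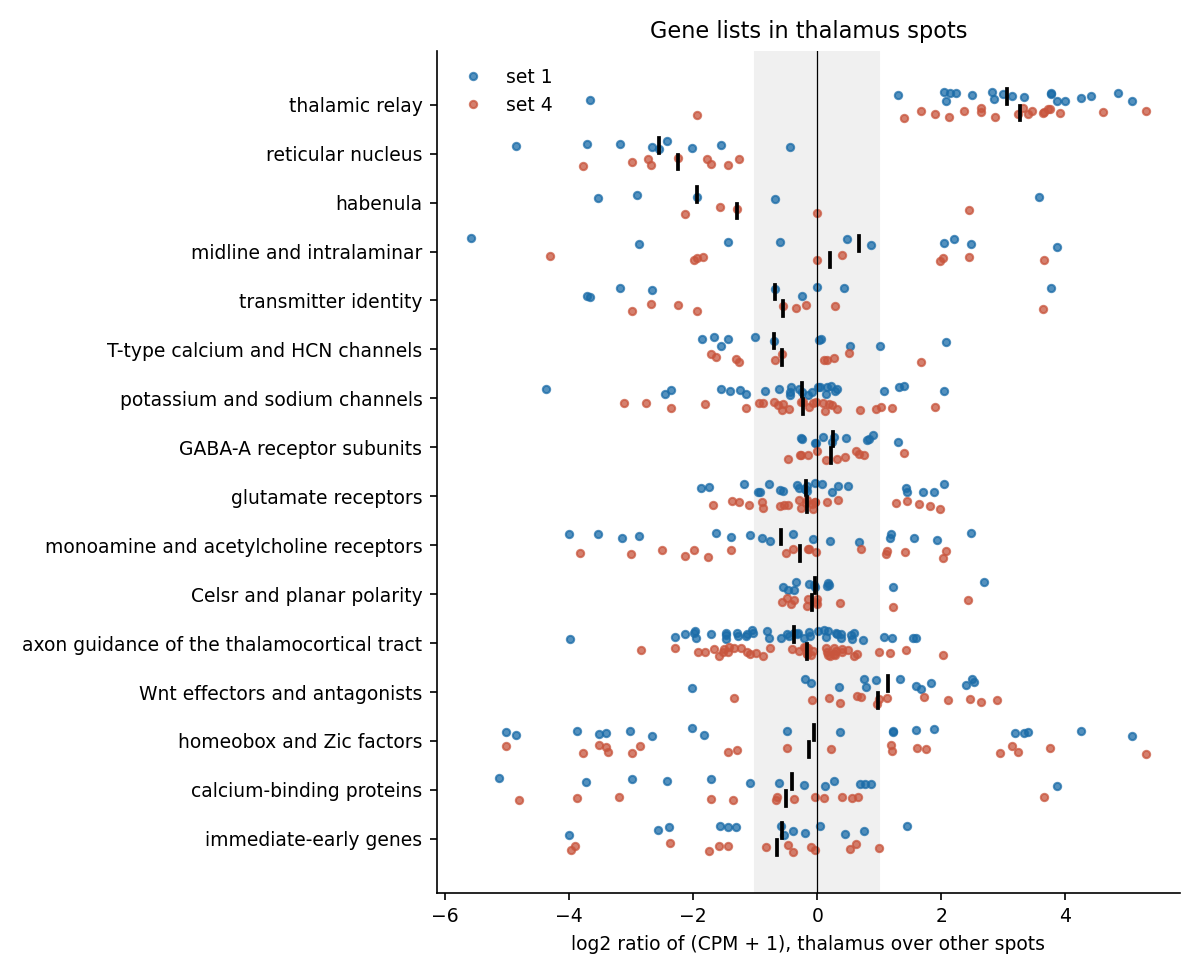
Each point is a gene of a list, placed by its log2 ratio of CPM plus 1 in thalamus over other spots, blue for set 1 and red for set 4, and black bars are list medians. Points are spread slightly in height so that they can be told apart, and the grey band is the range under 2-fold. Relay genes lie to the right with a median of 3.06 and 3.28, reticular genes to the left, and planar polarity genes near 0.

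Markers of other cell types were seldom called outside astrocytes and choroid plexus, beside 2.76% higher and 4.11% lower of all genes. For oligodendrocytes 0 of 6 genes were called, and their summed level was 7972 CPM in members against 16210 in set 1, and 8923 against 11772 in set 4. For astrocytes 2 of 8 were higher, Agt and Slc6a11, the GABA transporter gene GAT3, the latter at 917.5 and 627.5 CPM against 340.5 and 259.9. None of 6 microglial, 4 endothelial and mural, 3 oligodendrocyte precursor and 3 meningeal genes was called. Of 5 choroid plexus and ependyma genes, 3 were lower. Gfap was at 66.9 and 66.5 CPM against 168.2 and 114.8. Fewer cells of a type and less RNA per cell cannot be told apart in a spot.

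Striatum, cortex and hypothalamus spots, chosen by the same kind of score over 5 markers each, set the members against single regions. Sets 1 and 4 held 450 and 273 striatum spots, 134 and 253 cortex spots and 172 and 261 hypothalamus spots. Against striatum, 931 of 10037 genes (9.28%) were higher in thalamus and 666 (6.64%) lower. Against cortex the counts were 552 (5.51%) and 517 (5.16%) of 10017, and against hypothalamus 261 (2.55%) and 261 (2.55%) of 10238. The balance turned with the scaling: TMM gave 737 higher and 783 lower against striatum, 464 and 615 against cortex and 324 and 214 against hypothalamus, and RLE gave 792 and 787, 449 and 638, and 322 and 211. By TMM the median log2 ratio over striatum went from 0.07 to -0.18 in set 1, and over hypothalamus from -0.06 to 0.04. So no direction is read from these splits. Of the genes higher over all other spots, 87.5% were also higher over striatum, 86.1% over cortex and 53.7% over hypothalamus. As a few spots passed 2 rules, 3 members in set 1 and 7 in set 4 also had a hypothalamus score of 1.5 or more, and the hypothalamus spots exclude them.

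Genes above all 3 regions numbered 120 of 9729, of which 113 were also above other spots. With TMM this count was 120 and with RLE 123, and the ranking over all 3 was made after the values were seen. Shox2 led, at 44.7 and 94.9 CPM in members and 1.64 or less in any of the 3 regions in both sets. Grid2ip was 41.4-fold (27.5 to 65.6) and 28.2-fold (20.5 to 39.7) above hypothalamus, and Tnnt1 65.2-fold (42.1 to 107.0) and 32.5-fold (17.5 to 68.2). Prox1, a homeobox gene, was at 294.5 and 356.3 CPM against 38.7 and 50.4 in hypothalamus, and Plekhg1 at 306.4 and 212.8 against 28.0 and 14.9. Abhd12b, Epn3 and Rab37 were in the same group.

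Other leading genes were shared in part with the hypothalamus. Calb2 was at 559.1 and 636.1 CPM in hypothalamus spots, against 4.75 and 3.45 in striatum and 13.6 and 16.9 in cortex. Zic1 was at 77.8 and 382.1 in hypothalamus, with 760.9 and 1157 in thalamus. Cbln1 was at 206.8 and 263.3 in hypothalamus, beside 489.8 and 309.8 in members, and in set 4 the gap was thus under 2-fold. Slc17a6 was at 164.6 and 105.4 in hypothalamus and 0.501 and 1.01 in striatum.

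Within the thalamus, single spots differed for a small part of the genes. Of 4289 genes with at least 50 CPM in members of both sets, the median squared coefficient of variation beyond counting error was 0.04 in set 1 and 0.05 in set 4, and 37 genes had 1 or more in both, a cut chosen after the values were seen. The 10 most variable genes were Oxt, Pvalb, Slc17a7, Sst, Ttr, Prkcd, Gfap, Ptgds, Gad2 and Nptxr. The genes that led over other spots ranged widely on this measure, from 0.08 and 0.08 for Zic1 and 0.12 and 0.14 for Slc17a6 to 0.60 and 0.72 for Calb2, 0.69 and 0.74 for Plekhg1 and 1.10 and 1.43 for Cbln1.

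Some of this variation came from very few spots. Oxt, the oxytocin gene of hypothalamic neurons, had 98.7% of its counts in set 1 in 10 of 165 spots, and 115 spots had none. Its highest spot had 558.0 counts per 10000 and the median spot 0. Pvalb reached 27.7 and 36.6 per 10000 in its highest spots of sets 1 and 4, with a median of 0.140 and 0.332. Sst reached 49.1 and 35.1, with a median of 0.178 and 0.512. Over spots, log levels of Sst went with Gad2 at r of 0.70 in set 1 (165 spots) and 0.67 in set 4 (340 spots). With Gad1, r of Sst was 0.67 and 0.62. Rank correlations of Sst were lower, at 0.64 and 0.47 with Gad2 and 0.47 and 0.34 with Gad1. Pvalb went with Gad1 at 0.66 and 0.65, with lower rank correlations of 0.26 and 0.34. Sst also went with Oxt, at r of 0.60 in set 1, with a rank correlation of 0.12, and at 0.14 in set 4. For Gad2 and Oxt r was 0.35 and 0.30, and for Pvalb and Oxt -0.07 and -0.14. Spots of a set share a library and lie side by side, so these and later correlations are descriptions.

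Counts of the reticular list were concentrated in a minority of the member spots, and whether they came from reticular cells was not tested. The summed reticular list had a median of 1.66 per 10000 in members of set 1 and 2.70 in set 4, beside a highest spot of 62.9 and 95.4. In other spots of the same sets the median was 17.1 and 17.3. The summed relay list was high in most members, with a median of 67.9 and 73.5 and a highest of 99.8 and 118.5 per 10000. Its 10th percentile in members was 41.6 and 39.9, and its lowest member 19.8 and 15.7. Other spots had a median of 12.9 and 16.4, a 90th percentile of 41.7 and 37.6 and a highest of 88.9 and 84.5. The ranges thus overlapped, and the lowest member of set 4 was below the median of other spots.

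Prkcd was another uneven gene. It had no count in 25 of 165 spots of set 1 and 117 of 340 of set 4, a median of 0.453 and 0.353 per 10000 and a highest value of 11.2 and 9.03. Tnnt1 went with it, at r of 0.63 and 0.43. Mbp and Ptgds, genes of myelin and of prostaglandin synthesis, went together at 0.75 and 0.74. Slc17a7 had 56.8% and 53.8% of its counts in 10 spots, and over spots had r with Slc17a6 of -0.05 and -0.03.

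Member spots could be ordered along Calb2, which was picked for this from the spot correlations, with no other gene tried in its place. Calb2 had a median of 18.6 and 18.0 per 10000 in sets 1 and 4, and a highest value of 54.8 and 75.1, with 4 and 42 spots at 0. Of 4288 other genes, 100 had r of at least 0.5 with it in both sets and 70 had r of at most -0.5. Zcchc12, a zinc-finger gene, was the closest at 0.86 and 0.88, followed by Wdr6, Pnmal2, Hap1, the huntingtin-associated protein gene, and Hpcal4, a calcium sensor gene. On the other side Patj, a cell polarity scaffold gene, was at -0.89 and -0.84, followed by Cplx1, the complexin-1 gene of vesicle release, Rgs6, Gabrd and Pcp4l1. Calb2 itself was little tied to depth, with r of 0.04 and -0.19 with the log total count.

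The 50 genes at each end of r in set 1 kept its sign in set 4. Calb2 was picked from spot correlations of both sets, so set 4 is not held out and this is a description. The 50 genes with the highest r in set 1 alone were all at 0.69 or more there. In set 4, 44 of these 50 had r of 0.5 or more and the lowest was 0.44, whereas 2.59% of all genes reached 0.5 in that set. Of the 50 lowest in set 1, at -0.66 or less, 43 were at -0.5 or less in set 4, against 1.73% of all genes, and the highest was -0.32. The median r over all genes was 0.02 in set 1 and 0.01 in set 4.

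The levels behind these correlations are given for the ends of the order, where genes picked for their r had to differ. Between the 25% of spots with least and the 25% with most Calb2, Cplx1 went from 1700 to 231.7 CPM in set 1 and from 3506 to 256.7 in set 4. Patj went from 365.1 to 34.5 and from 318.8 to 28.7. Gabrd, the delta subunit of extrasynaptic GABA-A receptors, went from 337.0 to 49.0 and from 259.0 to 34.1, and Chrna4 from 278.9 to 66.5 and from 325.6 to 67.8. In the other direction Zcchc12 went from 159.4 to 888.2 and from 114.0 to 975.2, and Rab3b, a vesicle GTPase gene, from 9.28 to 502.9 and from 5.93 to 388.8. The low and the high end had close depth, with a median of 86730.5 and 96648.5 counts in set 1 and 37649 and 37211 in set 4. The spots between the ends were shallower, with a median of 72507 in set 1 and 28395 in set 4.

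Genes not picked for their r were read along the same order. Slc17a6 was at 579.4 CPM at the low and 733.0 at the high end of Calb2 in set 1, and 411.4 and 564.1 in set 4. The rule marker Gbx2 was at 12.8 and 231.3 in set 1, and 17.8 and 326.7 in set 4, a description only, since the choice of members used it. Prkcd was low at both ends, at 81.3 and 77.5 CPM in set 1 and 82.1 and 71.6 in set 4, and higher in the spots between, at 170.8 and 160.2. Mbp was at 5238, 3700 and 1927 CPM from the low end through the spots between to the high end in set 1, and at 5053, 6646 and 2352 in set 4, where the spots between had most. Celsr3 was at 29.7 and 35.0 in set 1, and 33.0 and 54.5 in set 4.

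**Figure D4:**
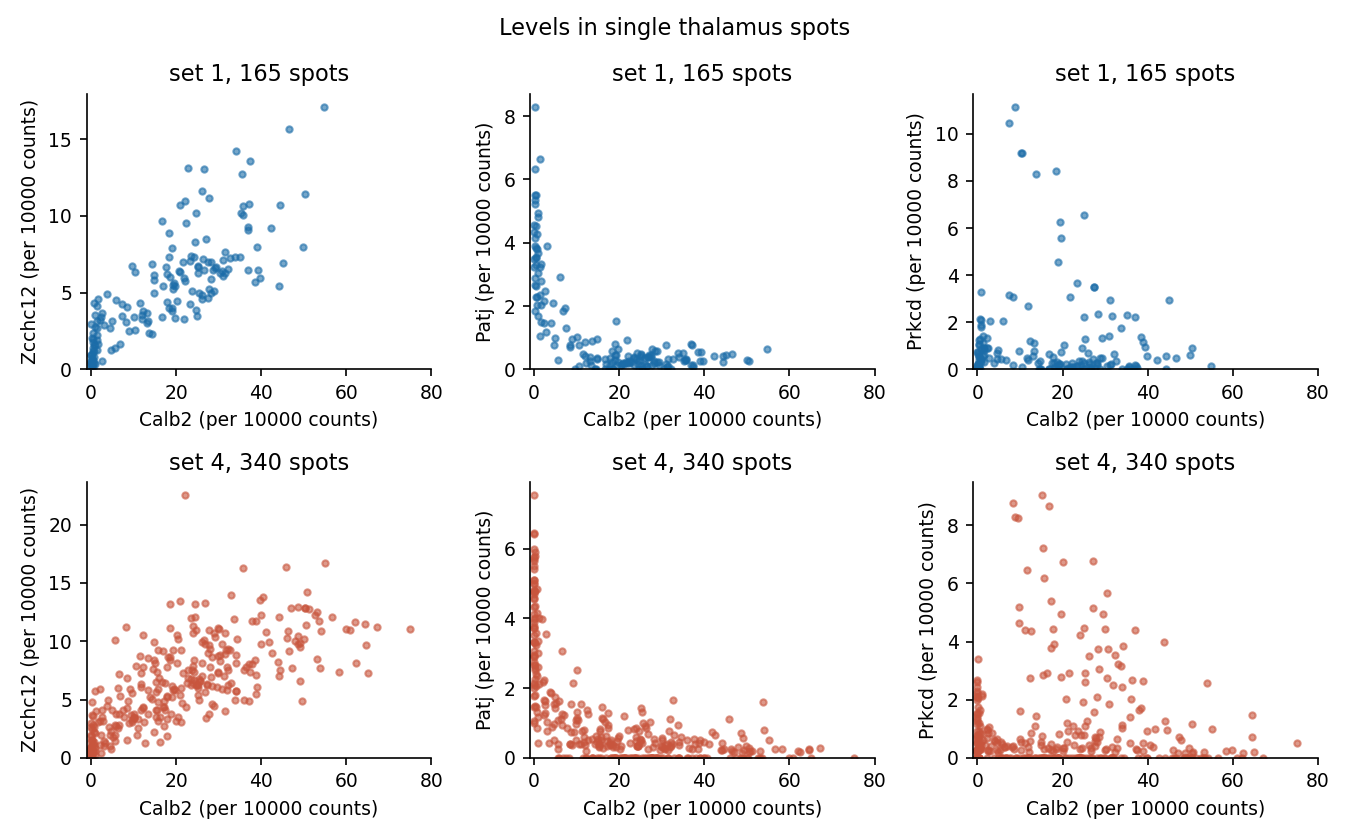
Each point is 1 thalamus spot, set 1 in the upper panels and set 4 in the lower ones, with Calb2 on the x axis and Zcchc12, Patj or Prkcd on the y axis, all in counts per 10000. Zcchc12 climbs with Calb2, and Patj is high where Calb2 is near 0. Prkcd reaches 9.03 in set 4 and 11.2 in set 1, there in a spot with Calb2 at 8.85, below the median of 18.6.

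Members of sets 1 and 4 were also set against each other, which compares 2 libraries and planes of section. Of 10001 genes, 472 (4.72%) were at least 2-fold higher in set 1 and 246 (2.46%) in set 4, and 65.7% of those apart were higher in set 1. With TMM scaling this share was 80.4% (651 and 159 genes) and with RLE scaling 80.5% (654 and 158), with a median log2 difference over all genes of 0.07 by CPM, 0.17 by TMM and 0.18 by RLE. Of the 718 genes apart, 531 (74.0%) were apart the same way in other spots. Me1, the malic enzyme gene, was at 35.4 CPM in members of set 1 and had no count in set 4, where other spots also had none. Gm10260 was at 1.69 against 246.0 CPM in members and 2.88 against 295.5 in other spots.

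For a small group of genes the difference between sets was not alike in thalamus and other spots. By a rule set after the values were seen, a gap between the 2 log2 differences of at least 1, there were 35 such genes, of which 17 were at least 2-fold apart in thalamus spots. C1ql2, which encodes a secreted synaptic protein of the C1q family, was at 49.4 CPM in set 1 and 183.9 in set 4, while other spots had 14.4 and 10.2, and 10 spots held 85.9% and 55.8% of its counts in members. Slc17a7 was at 97.9 and 330.7 CPM in members and 1250 and 1277 elsewhere. Eps8l2, an actin regulator gene, was at 22.2 and 68.0 against 4.15 and 4.79. Oxt was at 656.6 and 60.0 CPM in members, and Avp, the vasopressin gene, at 52.2 and 7.56, with 94.9% of the Avp counts of set 1 in 10 spots. Ttr, the transthyretin gene of the choroid plexus, was at 506.7 and 101.9 CPM in members and 7893 and 663.4 in other spots. Genotype, plane of section and library cannot be told apart here.

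**Figure D5:**
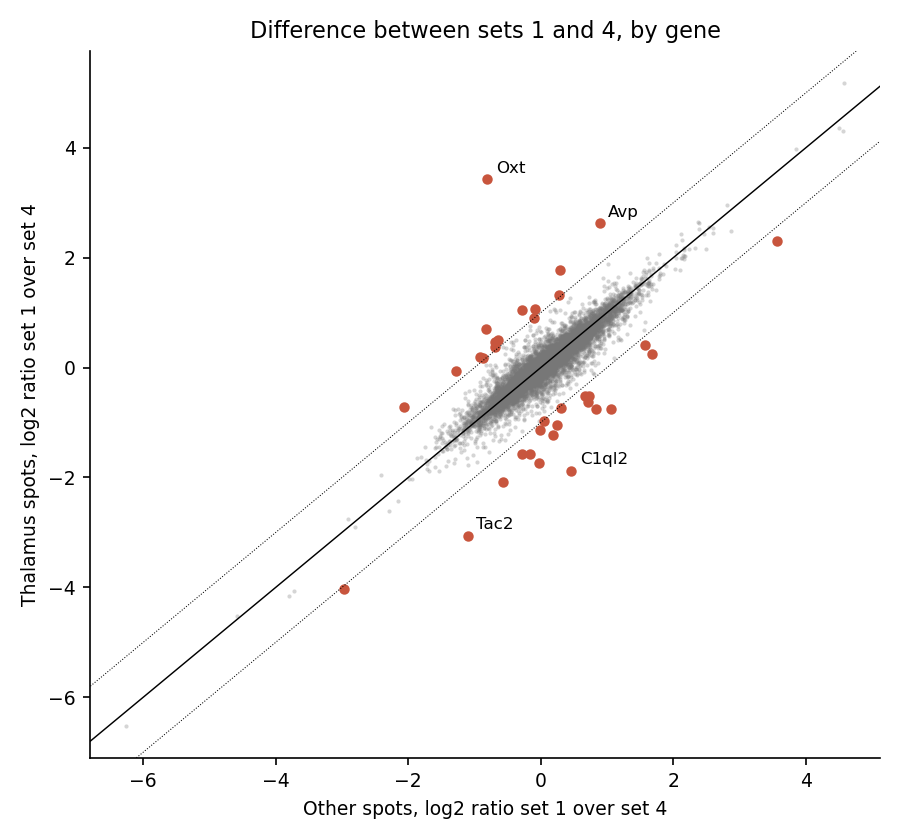
Each point is a gene, with the log2 ratio of set 1 over set 4 in other spots on the x axis and in thalamus spots on the y axis. The solid line marks equal ratios, the dotted lines a gap of 1, and the 35 genes beyond the dotted lines are red, with Oxt and Avp above and Tac2 and C1ql2 below. Most genes lie along the solid line, and 531 of the 718 genes apart in thalamus spots were apart the same way in other spots.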

How the data were processed

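The assay was Visium CytAssist on FFPE tissue, version 2 of the kit, which captures probe pairs hybridised to RNA. The authors deposited a single matrix of unnormalized counts, 19465 genes by 12602 spots, all whole numbers. Space Ranger and Seurat are named in the submitters' processing notes, while the genome build, probe set and spot filters are not given in the sources used here. One spot with fewer than 500 counts was left out. Spot endings gave 4 barcode sets, none of them tied to a mouse, so each set is 1 library with no replicate and no p-value is given.

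Counts were summed over member and other spots of a set and scaled to CPM. Ratios were taken on CPM plus 1. A gene was called at 2-fold or more in both sets with at least 50 members, and needed at least 10 CPM over members and other spots weighted equally. Intervals at 95% are exact Poisson, Clopper-Pearson or conditional binomial, and cover counting error only, since spots of a section are not replicates. Correlations use the natural log of 1 plus counts per 10000. Code was tested on simulated data with known changes. Tools were Python 3.11.15, numpy 2.4.6, scipy 1.17.1, pandas 2.3.3, matplotlib 3.10.9 and, for TMM and RLE factors only, edgeR 4.0.16 in R 4.3.3. Promoter sequences are from RefSeq (GRCm38.p6).

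Named genes were the 5 rule markers, the 15 largest and 15 smallest ratios among genes with at least 50 CPM, ranked by the weaker set, the 10 most variable genes, the 10 largest differences each way between sets 1 and 4, and members of 16 gene lists and the marker lists. Some genes that the rule names are not reported here. Members and lists were chosen with earlier results of these data known. The Calb2 order and its genes, the set 3 genes, the ranking over 3 regions and the genes with unlike differences between sets were added after the values were seen. Alternatives covered the score threshold, each marker left out, z within sets, each set left out, the filter, pseudocount, fold and scaling.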

Additional observations from a re-analysis of the deposited data

How the results depend on the processing

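No paired analysis was possible because no replicate number or mouse could be read from a spot's barcode ending, and no result comes from a test between groups. The share of members moved most with how z was taken. Within each set it became 1.71% in set 2, 1.95% in set 3 and 8.01% in set 4, and the genes called became 74 higher and 262 lower, since set 3 then counted with 67 members. The 1 spot of set 2 was lost, a share of 0%, at a threshold of 2, without Gbx2 and without set 3, and a threshold of 2 gave 8.99% in set 4. Over the other spots, a minimum of 50 CPM gave 150 higher and 180 lower, a fold of 1.5 gave 608 and 762, and a fold of 3 gave 119 and 216. Leaving out each set gave a share in set 2 from 0 to 0.107%, and 288 to 344 higher and 417 to 483 lower, and TMM gave 305 and 397. Genes apart between sets 1 and 4 numbered 1172 with no filter, 256 at 50 CPM and 466 with a pseudocount of 5 CPM. With no filter 948 genes were above cortex and 415 below hypothalamus. At 50 CPM the counts above and below were 388 and 428 for striatum, 229 and 295 for cortex, and 141 and 87 for hypothalamus. Of 1320 alternative values for the log2 ratio of named genes, 1140 moved by less than counting error, 180 moved more and 0 changed sign. The genes following Calb2 numbered 90 to 109, and those against it 65 to 77, under 4 alternatives chosen after seeing the data, as were those for the comparator regions and the last 2 for sets 1 and 4. The main limits are that each set is 1 section of unknown genotype, that sets 1 and 4 alone hold enough members, and that a depth near 33358.5 counts per spot in set 4 leaves genes at a few CPM with no count in most spots.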
